A study of Homo sapiens with 12 samples.

Results

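The 52 genes described here encode the collagen chains of the human genome that the count tables list, the lysyl oxidases that crosslink them, and 3 matrix proteins that bind them. They were chosen by symbol and not by value, though with earlier results of these data known. Of the 27064 symbols in the tables, 44 were collagen chains (COL, a type number, A and a chain number). The other 8 were LOX, LOXL1, LOXL2, LOXL3, LOXL4, SPARC, BGN and FN1. Poly(A) RNA was sequenced from NCI-H226 (H226), a pleural mesothelioma line, and ACHN, a kidney cancer line, and per the labels both lack the Hippo pathway regulator NF2. Cells in 6-well plates were kept overnight with SWTX-143 at 100 nM or with the vehicle DMSO. SWTX-143 irreversibly inhibits TEAD transcription factors, through which the Hippo pathway's coactivators YAP and TAZ act. The 4 groups were H226 with SWTX-143, H226 with DMSO, ACHN with SWTX-143 and ACHN with DMSO, with 3 libraries each. Each line is a single cancer cell line with no stroma of its own, and no untreated or NF2-restored cells were analysed here.

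Collagens are trimers of chains. Fibrillar types such as I, III and V build tensile fibrils, type IV forms the sheet of basement membranes, type VI forms beaded filaments between cells and matrix, and the remaining types decorate fibrils, anchor epithelia or span membranes. Lysyl oxidases are copper enzymes that oxidise lysines so that neighbouring collagen molecules become covalently linked. Mesothelial cells and kidney epithelium both rest on a type IV basement membrane.

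Depth was even, at 9690980 to 11262663 counts per H226 library and 10113810 to 11206457 per ACHN library. Nothing in the labels tells whether the 3 libraries of each group were separate cultures, so p-values reflect just the spread of these samples and that spread may be technical. Levels are CPM, counts scaled to library size by TMM, and CPM per kb where genes are set against each other. With n = 3 libraries in each group, ± gives the SD of a level and the SE of a log2 fold change. A gene is written as higher, lower, risen or fallen under SWTX-143 only where edgeR's adjusted p was under 0.05. The TEAD targets CTGF, CYR61, ANKRD1 and AMOTL2 fell in both lines, with log2 fold changes between −2.53 (CTGF) and −0.83 (AMOTL2) in H226, and between −2.39 (CTGF) and −1.19 (AMOTL2) in ACHN. Under DMSO, H226 exceeded ACHN for all 8 mesothelial markers and lay below it for all 6 tested of 7 kidney markers. The seventh, EMX2, had no count. The fibroblast markers DCN, LUM and PDGFRA and the endothelial markers PECAM1 and CDH5 stayed under 1 CPM in every library. KDR, a VEGF receptor on the same endothelial list, was the exception, at 158 ± 7.54 CPM in SWTX-143 and 224 ± 5.85 CPM in DMSO in H226. VWF, also on that list, did not pass the filter in either line. ACTA2, the actin of smooth muscle and myofibroblasts, rose in both lines with log2 fold changes of 0.22 in H226 and 0.21 in ACHN. PDGFRB, a receptor of stromal cells, fell in both, by 0.28 in H226 and by 0.61 in ACHN on the log2 scale. On the same stromal list, THY1 passed the filter in both lines and POSTN in H226 alone, and neither was called. The summed CPM of the 7 fibroblast and stromal markers was 222 to 238 in SWTX-143 and 231 to 242 in DMSO in H226, and 399 to 411 in SWTX-143 and 391 to 403 in DMSO in ACHN. Of 4 leukocyte markers, PTPRC was at 0 in every library, and CD68, a lysosomal protein, rose in H226 (log2 fold change 0.32, adjusted p = 0.0329) and in ACHN (0.42, adjusted p = 2.65e-07). The summed CPM of these 4 was 13.8 to 17.1 in SWTX-143 and 10.4 to 12.8 in DMSO in H226, and 56.4 to 65.5 in SWTX-143 and 42.7 to 45.4 in DMSO in ACHN. Under SWTX-143, 5 of the 8 mesothelial markers rose in H226, where 19% of all tested genes rose. All 3 tested fell in ACHN, where 9.37% of all tested genes fell. The part of these markers in the results was not tested.

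The inhibitor moved many of these genes by small amounts, and the summed level changed little in H226 and was lower in ACHN. In H226 the 52 genes summed to 13220 ± 70.1 CPM with SWTX-143 and 13360 ± 169 CPM with DMSO, and in ACHN to 3661 ± 79.2 CPM with SWTX-143 and 4008 ± 85.8 CPM with DMSO. The 44 collagens alone summed to 7611 ± 153 CPM with SWTX-143 and 7431 ± 30.4 CPM with DMSO in H226, with every treated library higher. In ACHN they summed to 2139 ± 66.0 CPM with SWTX-143 and 2430 ± 32.2 CPM with DMSO. In H226, 34 of the 52 passed the filter on low counts and 20 were called, 14 higher and 6 lower. Of all 13484 genes tested in H226, 40.7% were called, 19% higher and 21.6% lower. In ACHN, 28 passed and 12 were called, 3 higher and 9 lower, where 17.8% of all 13483 tested genes were called, 8.43% higher and 9.37% lower. The median log2 fold change of the tested members was 0.14 in H226 and 0.03 in ACHN, beside −0.001 and 0.001 over all tested genes. The split over all genes depends on the scaling: upper-quartile scaling gave 3283 higher and 2324 lower calls in H226 in place of 2567 and 2919, and 1450 higher and 1028 lower in ACHN in place of 1137 and 1264. The members' split under that scaling was 16 higher and 5 lower in H226 and 3 higher and 9 lower in ACHN.

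Read by gene, 5 members fell in both lines (COL4A1, COL4A3, COL4A4, LOXL2 and SPARC), 2 rose in both (COL6A1 and COL6A2), and LOX rose in H226 and fell in ACHN. COL8A1 fell and 6 members rose in H226 without a call in ACHN (COL4A5, COL7A1, COL11A2, COL16A1, COL17A1 and COL18A1). In ACHN, COL4A2, COL12A1 and LOXL4 fell and FN1 rose without a call in H226. A call in a single line is not itself a difference between the lines. Of these genes, the joint fit called a difference for COL8A1, COL7A1, COL4A2 and FN1. It called none for COL4A5, COL11A2, COL12A1, COL16A1, COL17A1, COL18A1 and LOXL4 (adjusted p from 0.0646 for COL12A1 to 0.905 for COL17A1). A further 5 rose in H226 and were too low in ACHN for a test (COL5A1, COL9A2, COL9A3, COL23A1 and BGN). Of the rest, 7 were tested in both lines and called in neither, 3 were tested in H226 alone and 2 in ACHN alone without a call, and 16 were tested in neither. The share of all genes in each of these classes was not counted, so the numbers describe the members and are not read as particular to them. COL9A2, COL9A3 and COL23A1 passed the filter in H226 largely through their treated libraries, so a difference in that direction was built into their being tested. In bulk RNA, fewer cells that express a gene and less RNA per cell cannot be told apart.

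**Figure D1:**
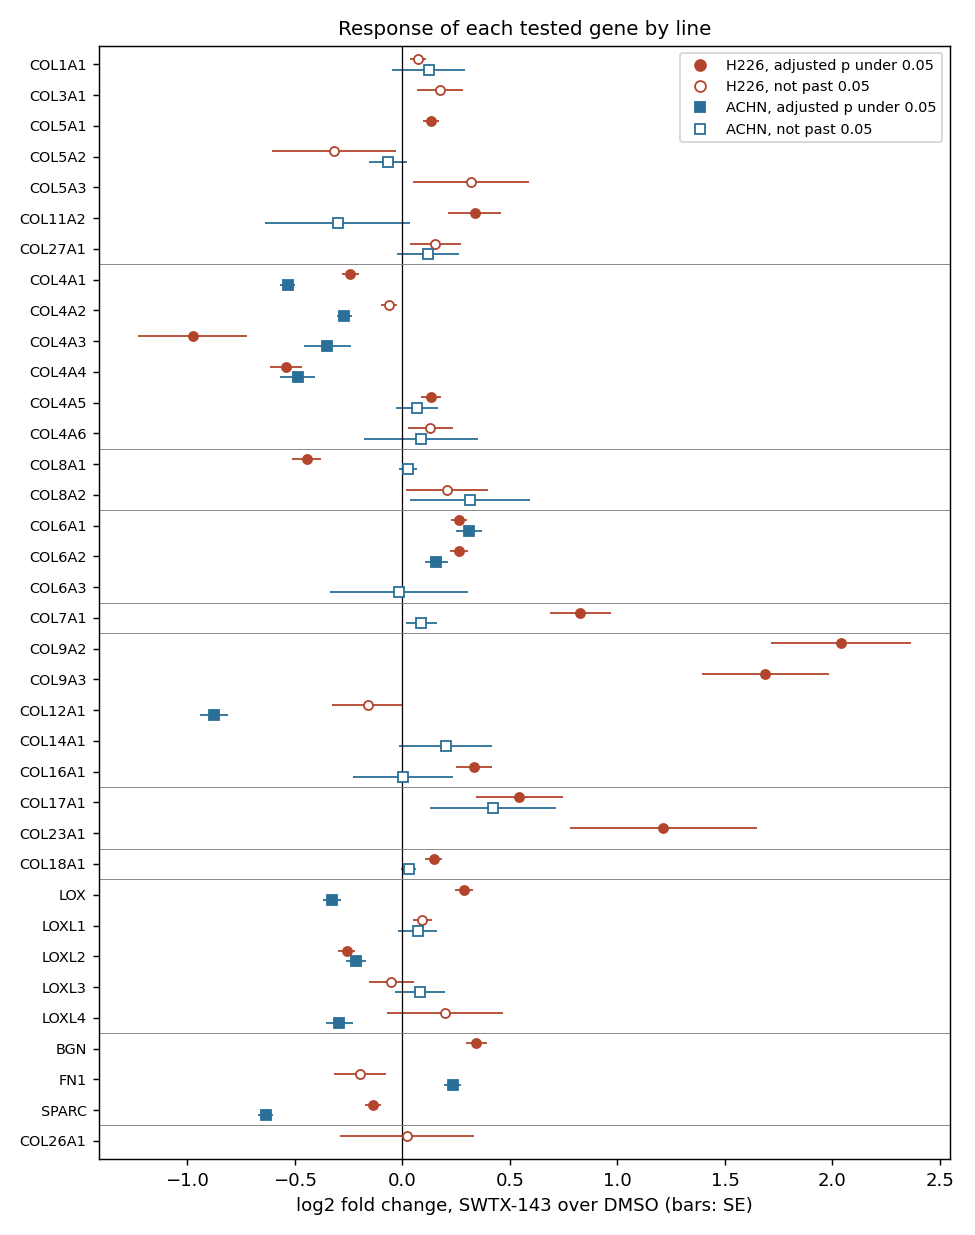
Log2 fold change of SWTX-143 over DMSO for the 36 members tested in either line or in the joint fit, circles for H226 and squares for ACHN, with bars of 1 SE. Filled symbols had an adjusted p under 0.05; the lines divide the classes of chain. SPARC, COL12A1, COL4A1 and LOX lay below 0 in ACHN, and in H226 LOX lay above 0 while SPARC and COL4A1 lay nearer to 0 than in ACHN.

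Under DMSO the repertoires of both lines differed in kind as well as in amount. Among the highest members H226 had fibrillar and type VI chains beside type IV, while ACHN had type IV, type XVIII and type VIII chains with fibronectin. Per length, the 8 highest members in H226 were SPARC (849.8 ± 24.5), COL6A1 (208 ± 6.42), LOXL2 (165 ± 6.64), COL1A1 (113 ± 0.691), COL4A2 (97.9 ± 1.40), LOX (96.8 ± 2.31), COL4A1 (84.1 ± 1.16) and COL5A1 (61.5 ± 1.83 CPM per kb). In ACHN they were SPARC (89.3 ± 1.01), COL18A1 (54.7 ± 1.36), FN1 (45.4 ± 2.73), COL4A2 (44.0 ± 0.593), COL4A1 (38.2 ± 0.637), LOX (27.8 ± 0.119), LOXL2 (22.3 ± 1.55) and COL8A1 (21.7 ± 0.803 CPM per kb). The H226 libraries of COL4A2 and LOX overlapped, as did the ACHN libraries of COL4A2 and FN1 and of LOXL2 and COL8A1, so the order within those pairs is not fixed by these data. Dividing by the longest transcript in place of the union of exons kept the same 8 genes in each line but changed their order. COL4A2 reached 291 CPM per kb in H226, above LOXL2 (265) and COL6A1 (261.5), and 131 CPM per kb in ACHN, where it passed SPARC. In H226, COL4A1 (187) also passed COL1A1 (165.5) and LOX (105). In ACHN, FN1 (85.6) and COL4A1 (85.1) passed COL18A1 (70.8), and COL8A1 (35.8) and LOXL2 (35.8) passed LOX (30.2). The order within each line thus depends on the length used.

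**Figure D2:**
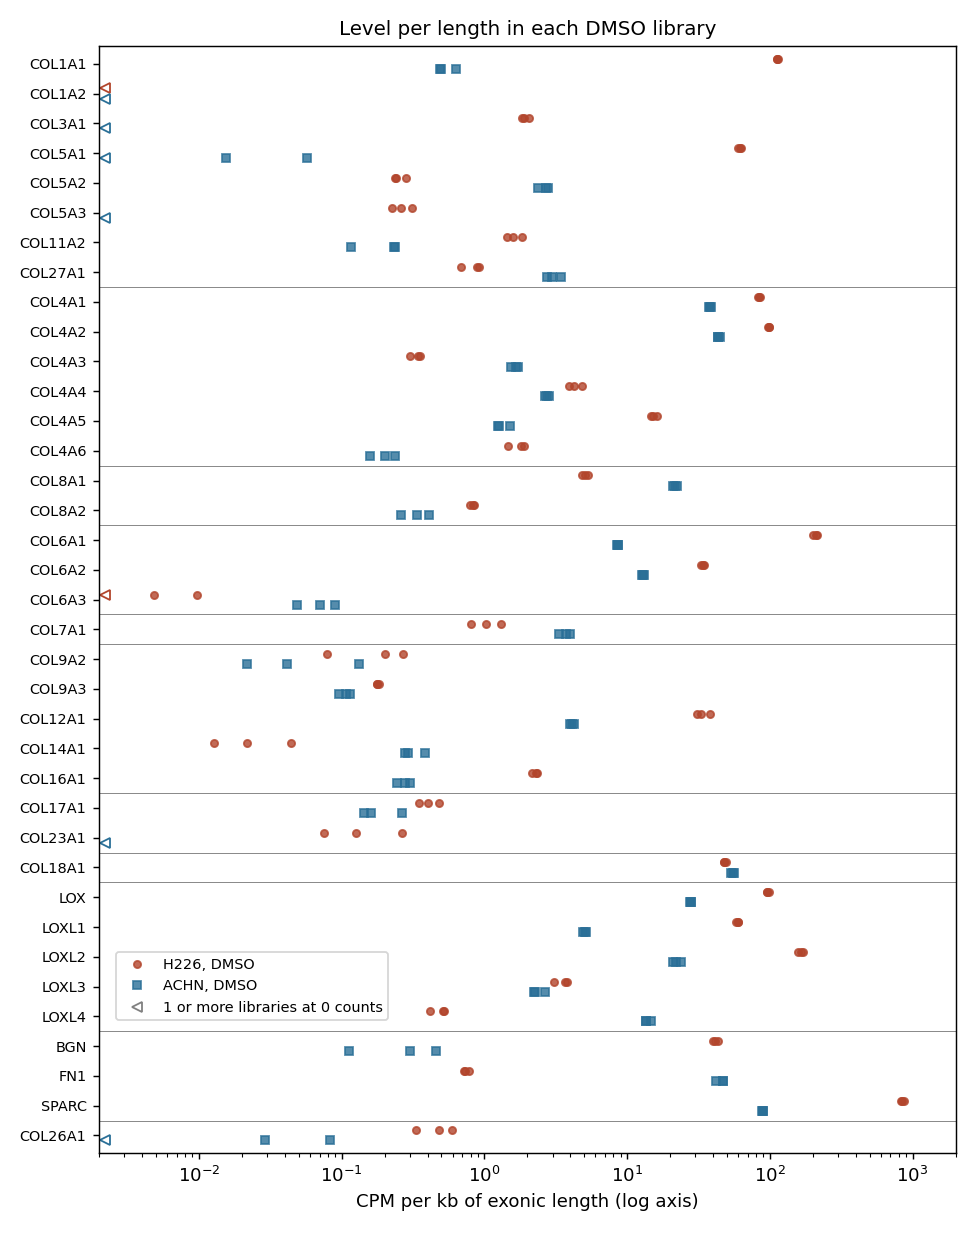
CPM per kb of exonic length in each DMSO library on a log axis, for the 36 members tested in the joint fit and COL1A2; circles are H226, squares are ACHN, and open triangles mark genes with at least 1 library at 0 counts. Per kb of the union of exons, SPARC was the highest member in both lines, and COL1A1, COL5A1 and BGN averaged 41.6 CPM per kb or more in H226 and 0.538 CPM per kb or less in ACHN.

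Of 36 members tested between the lines, 35 were called, 25 higher and 10 lower in H226, and only COL9A3 was not (log2 fold change 0.74 ± 0.46, adjusted p = 0.131). COL3A1, COL5A1, COL5A3, COL9A2, COL9A3, COL23A1, COL26A1 and BGN were too low for a test within ACHN, and COL6A3 and COL14A1 within H226. They passed the joint filter through the other line, so a difference in that direction was built into their being tested. The split and the median below include them. Of all 14664 tested genes 84.4% were called, 42.2% in each direction, so the members' share is read against a high background. The median log2 fold change of the members was 1.45, beside 0.004 over all tested genes. Setting the genes at 0 in ACHN at their bound could not move that median, since each bound lies above it. Line and the handling of each line, deposited as separate tables, cannot be told apart. COL1A2, COL9A1, COL19A1 and COL22A1 had no count in any of the 12 libraries, which allows up to 0.0233 CPM (3 counts over all of them). In ACHN, 7 more had none: COL3A1, COL5A3, COL15A1, COL20A1, COL21A1, COL23A1 and COL25A1. Such limits cover counting error only. Of the oxidases, LOX, LOXL1, LOXL2 and LOXL3 were higher in H226 and LOXL4 was lower (−4.85 ± 0.12, adjusted p = 8.95e-53), and BGN was higher in H226 (7.12 ± 0.12, adjusted p = 4.31e-65).

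Several fibrillar chains differed between the lines by large factors. COL1A1, the main chain of type I collagen, had 1108, 1111 and 1121 CPM in the DMSO libraries of H226, against 4.76, 4.84 and 6.25 CPM in those of ACHN. Its usual partner COL1A2 was at 0 in every library of both lines. COL5A1, a type V chain that sets fibril diameter, had 688 ± 20.5 CPM in H226 and 0.272 ± 0.332 CPM in ACHN under DMSO. COL5A2, the usual partner of COL5A1, went the other way, with 1.88 ± 0.183 CPM in H226 and 19.5 ± 1.72 CPM in ACHN. Each line held mainly a single type V chain at the RNA level. COL3A1, the fibrillar chain of distensible tissue, had 13.1 ± 0.751 CPM in H226 and no count in ACHN, which makes it at least 144-fold higher against the floor of 3 counts pooled over the ACHN DMSO libraries. On the same floor COL5A3 was at least 19.8-fold higher in H226. COL11A2, a minor fibrillar chain of cartilage, was higher in H226 (10.9 ± 1.33 CPM, against 1.31 ± 0.455 CPM in ACHN). COL27A1, a fibrillar chain also first known from cartilage, was lower in H226 (11.6 ± 1.78 CPM, against 42.7 ± 5.01 CPM in ACHN).

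Under SWTX-143, 2 of 7 tested fibrillar chains rose in H226, where 19% of all tested genes rose, and none fell. Of 4 tested in ACHN edgeR called 0, with 0 at an unadjusted p under 0.05 and 0 called by DESeq2. COL5A1 had 757, 741 and 783 CPM with SWTX-143 in H226, against 692, 667 and 707 CPM with DMSO. All 3 treated libraries lay above all DMSO libraries (log2 fold change 0.13 ± 0.04, adjusted p = 0.00443). COL11A2 had 12.2, 12.7 and 16.5 CPM with SWTX-143 against 10.7, 9.71 and 12.3 CPM with DMSO, groups that overlapped (0.34 ± 0.12, adjusted p = 0.0246). Its call was lost without DMSO replicate 1, DMSO replicate 2 or SWTX-143 replicate 3, where the log2 fold change was 0.33, 0.26 and 0.19, and in DESeq2 (adjusted p = 0.114). COL1A1 had 1173, 1162 and 1199 CPM with SWTX-143 against the DMSO values above, and did not pass (0.07 ± 0.04, adjusted p = 0.118). Upper-quartile scaling (log2 fold change 0.12, adjusted p = 0.00683) and library size alone (0.11, adjusted p = 0.00728) did call it. COL3A1, COL5A2, COL5A3 and COL27A1 in H226 had adjusted p from 0.196 to 0.4.

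Of the 6 type IV chains, COL4A1, COL4A3 and COL4A4 fell in both lines and COL4A2 fell in ACHN. COL4A1 and COL4A2 build the common basement membrane network, COL4A3 and COL4A4 join COL4A5 in the network of mature kidney glomeruli, and COL4A5 also pairs with COL4A6. The genes sit in head-to-head pairs that read away from a shared promoter region. In RefSeq's promoter table (GRCh38.p14; 250 bases before to 50 after each start) the starts of COL4A1 and COL4A2 had 126 bases between them on chromosome 13. Those of COL4A4 and COL4A3 had 418 on chromosome 2, and those of COL4A6 and COL4A5 had 379 on the X chromosome for the nearer COL4A6 entry. The windows of the first and second pair are shown because both genes of each pair fell in ACHN. The COL4A2 window, chr13:110307034-110307333 on the plus strand, has the bases between both starts in capitals. The COL4A3 window (chr2:227164374-227164673, plus strand) and the COL4A4 window (chr2:227164156-227164455, minus strand) have in capitals the 82 bases they share, read from opposite strands.
COL4A2: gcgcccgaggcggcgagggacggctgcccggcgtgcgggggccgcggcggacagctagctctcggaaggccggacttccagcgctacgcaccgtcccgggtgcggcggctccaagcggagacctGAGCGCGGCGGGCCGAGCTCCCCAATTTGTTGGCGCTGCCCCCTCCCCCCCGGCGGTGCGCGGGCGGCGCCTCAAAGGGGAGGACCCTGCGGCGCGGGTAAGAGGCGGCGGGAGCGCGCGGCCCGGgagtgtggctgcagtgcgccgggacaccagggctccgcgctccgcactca
COL4A3: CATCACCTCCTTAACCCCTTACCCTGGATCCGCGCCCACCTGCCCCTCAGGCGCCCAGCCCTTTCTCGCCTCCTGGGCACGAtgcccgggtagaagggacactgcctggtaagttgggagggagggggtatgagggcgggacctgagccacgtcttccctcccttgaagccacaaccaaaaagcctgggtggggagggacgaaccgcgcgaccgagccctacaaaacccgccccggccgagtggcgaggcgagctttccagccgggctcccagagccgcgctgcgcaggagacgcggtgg
COL4A4: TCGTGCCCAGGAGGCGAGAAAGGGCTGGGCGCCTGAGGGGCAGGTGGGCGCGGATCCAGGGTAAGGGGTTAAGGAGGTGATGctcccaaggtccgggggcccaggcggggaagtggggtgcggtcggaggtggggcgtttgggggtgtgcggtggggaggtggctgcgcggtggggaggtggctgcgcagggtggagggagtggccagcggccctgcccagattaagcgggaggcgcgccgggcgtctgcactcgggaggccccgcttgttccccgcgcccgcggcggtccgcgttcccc
None of the entries of COL4A1 to COL4A6 held CATTCC, the core letters that TEAD factors bind, or GGAATG, the same letters on the other strand. These letters stood in 5 of the 54 promoter entries of the 39 members matched by symbol (9.26%) and in 14.0% of all 35116 windows of 300 bases. A match or its lack describes only the letters in this window.

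COL4A1 had 1064, 1034 and 1069 CPM in the SWTX-143 libraries of H226, against 1226, 1259 and 1235 CPM in its DMSO libraries. ACHN cells had 399, 402 and 381 CPM with SWTX-143, against 565, 553 and 572 CPM with DMSO. In both lines every treated library lay below every DMSO library, and the log2 fold change was −0.24 ± 0.04, adjusted p = 3.83e-07 in H226 and −0.53 ± 0.04, adjusted p = 6.27e-18 in ACHN. COL4A2 had 741, 715 and 677 CPM with SWTX-143 in ACHN, against 842, 862 and 842 CPM with DMSO (−0.27 ± 0.04, adjusted p = 1.9e-08). In H226 it had 1819, 1810 and 1844 CPM with SWTX-143 against 1860, 1914 and 1895 CPM with DMSO, which was not called (−0.06 ± 0.04, adjusted p = 0.194). The libraries of both groups were again apart. The ratio of COL4A1 to COL4A2, per kb of the union of exons of each, was lower in every treated library. It was 0.758 ± 0.00916 with SWTX-143 and 0.859 ± 0.00550 with DMSO in H226, and 0.726 ± 0.0177 with SWTX-143 and 0.869 ± 0.0256 with DMSO in ACHN.

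COL4A3 and COL4A4, far less abundant per length than COL4A1 and COL4A2, fell in both lines. COL4A4 had 29.3, 31.5 and 29.8 CPM with SWTX-143 in H226, against 48.8, 39.1 and 43.1 CPM with DMSO (−0.54 ± 0.07, adjusted p = 2.7e-08). In ACHN it had 19.5, 18.3 and 22.0 CPM with SWTX-143, against 27.8, 28.6 and 26.6 CPM with DMSO (−0.49 ± 0.08, adjusted p = 9.17e-06). The groups were apart in both lines, and the joint fit called no difference between them (−0.06 ± 0.11, adjusted p = 0.806). COL4A3 had 1.88, 1.30 and 1.50 CPM with SWTX-143 in H226, against 3.12, 3.24 and 2.75 CPM with DMSO (−0.98 ± 0.25, adjusted p = 0.00144). The ACHN libraries had 13.4, 10.3 and 11.6 CPM with SWTX-143, against 15.1, 15.6 and 14.0 CPM with DMSO (−0.35 ± 0.11, adjusted p = 0.0162). All treated libraries lay below all DMSO libraries in each line. The ACHN call of COL4A3 was lost without DMSO replicate 2, SWTX-143 replicate 2 or SWTX-143 replicate 3 (log2 fold change −0.31, −0.26 and −0.34) and in DESeq2 (adjusted p = 0.109). Under DMSO, COL4A3 was lower in H226 than in ACHN and the other 5 type IV chains were higher.

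COL4A5 and COL4A6 did not share that fall. COL4A5 had 199.8, 193 and 208 CPM with SWTX-143 in H226, against 193, 179 and 173 CPM with DMSO, a small rise with groups apart (0.13 ± 0.05, adjusted p = 0.0167). That call was lost without DMSO replicate 2 (0.12), DMSO replicate 3 (0.10) or SWTX-143 replicate 3 (log2 fold change 0.11). In ACHN COL4A5 had 16.9 ± 1.27 CPM with SWTX-143 and 16.0 ± 1.72 CPM with DMSO (0.07 ± 0.10, adjusted p = 0.701). COL4A6 was not called in either line (0.13 ± 0.10, adjusted p = 0.326 in H226, 0.09 ± 0.27, adjusted p = 0.876 in ACHN).

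**Figure D3:**
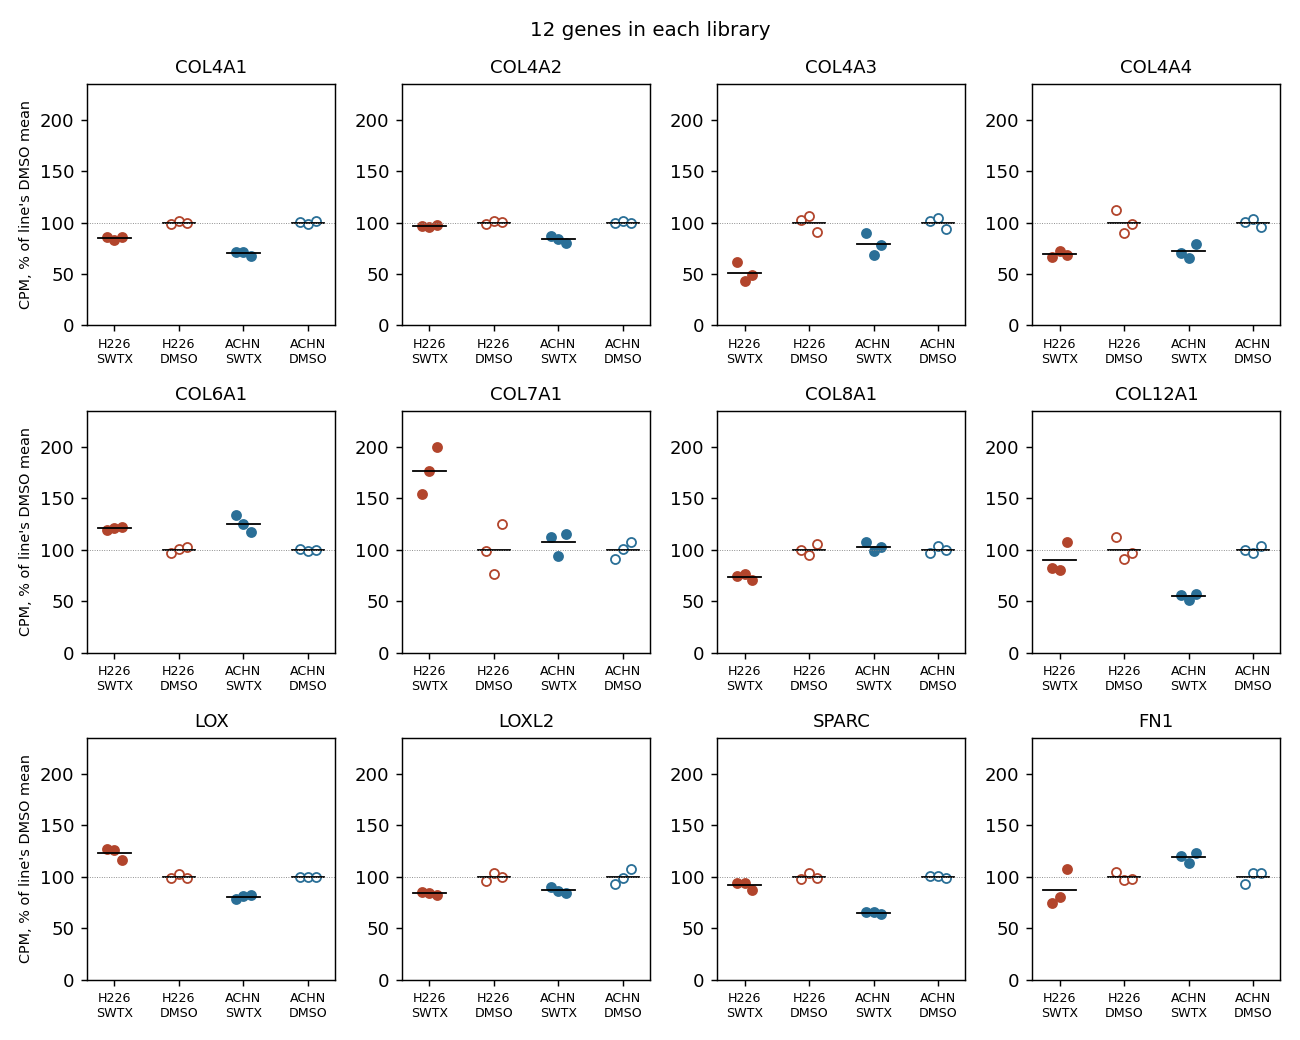
CPM in each library as a percentage of the mean of the same line's DMSO libraries, for 12 members; filled circles are SWTX-143, open circles DMSO, and bars the means of 3 libraries. COL4A1, COL4A3 and COL4A4 fell in both lines, COL6A1 rose in both, and LOX moved up in H226 and down in ACHN. SWTX-143 replicate 3 of H226 stood above replicates 1 and 2 for COL12A1 and FN1.

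COL6A1 and COL6A2 of type VI collagen rose in both lines. The usual trimer of that type joins COL6A1, COL6A2 and the much larger COL6A3. COL6A1 had 1319, 1346 and 1350 CPM with SWTX-143 in H226, against 1071, 1117 and 1138 CPM with DMSO (0.26 ± 0.04, adjusted p = 7.04e-08). ACHN cells had 61.3, 57.3 and 53.9 CPM with SWTX-143, against 46.2, 45.5 and 45.8 CPM with DMSO (0.31 ± 0.06, adjusted p = 7e-05). Every treated library was above every DMSO library. COL6A2 had 218, 221 and 219.5 CPM with SWTX-143 in H226, against 177, 186 and 182 CPM with DMSO (0.26 ± 0.04, adjusted p = 1.16e-06). In ACHN it had 83.2, 78.9 and 73.0 CPM with SWTX-143, against 68.4, 69.3 and 70.8 CPM with DMSO (0.16 ± 0.05, adjusted p = 0.0301). The groups were apart in both lines. The ACHN call of COL6A2 was weak: DESeq2 (adjusted p = 0.131) and 5 of the 6 fits that left out a library (all but SWTX-143 replicate 3) lost it, at log2 fold changes of 0.12 to 0.17.

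The supply of the type VI chains was uneven. The ratio of COL6A1 to COL6A2, per kb of the union of exons, was 6.14 ± 0.0549 with SWTX-143 and 6.14 ± 0.132 with DMSO in H226. In ACHN it was 0.740 ± 0.00701 with SWTX-143 and 0.665 ± 0.0143 with DMSO, with the libraries apart. Per kb of the longest transcript this ratio was 4.98 in both H226 groups, and 0.599 with SWTX-143 and 0.539 with DMSO in ACHN. COL6A3 had only 0.158 ± 0.107 CPM with SWTX-143 and 0.0947 ± 0.0944 CPM with DMSO in H226, and was not tested there. In ACHN, COL6A3 had 1.37 ± 0.455 CPM with SWTX-143 and 1.37 ± 0.406 CPM with DMSO (−0.01 ± 0.32, adjusted p = 0.984). COL6A5 and COL6A6, relatives that can stand in for COL6A3, stayed under 0.1 CPM in every group mean.

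COL8A1 encodes a short chain that forms hexagonal sheets, known from vessel walls and the membrane under the corneal endothelium. It had 35.4, 36.6 and 33.6 CPM with SWTX-143 in H226, against 47.3, 45.2 and 50.3 CPM with DMSO. All treated libraries were lower (−0.44 ± 0.07, adjusted p = 1.94e-07). In ACHN it had 220.3, 201 and 209 CPM with SWTX-143, against 197, 212 and 204 CPM with DMSO. Those groups overlapped (0.03 ± 0.04, adjusted p = 0.725). Its partner COL8A2 was not called in H226 (0.21 ± 0.19, adjusted p = 0.41) or in ACHN (0.32 ± 0.28, adjusted p = 0.497). COL10A1, the short chain of hypertrophic cartilage, was under 0.1 CPM in every group mean.

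COL7A1, whose product anchors epithelia to the stroma beneath, had 17.8, 20.4 and 23.2 CPM with SWTX-143 in H226, against 11.4, 8.85 and 14.4 CPM with DMSO. Every treated library was above every DMSO library, by a mean ratio of 1.77 (0.83 ± 0.14, adjusted p = 0.000133). The ACHN libraries had 45.4, 38.2 and 46.9 CPM with SWTX-143, against 36.8, 41.0 and 43.8 CPM with DMSO, with overlapping groups (0.09 ± 0.07, adjusted p = 0.444). Under DMSO it was lower in H226 than in ACHN.

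COL12A1 was the member with the largest fall in ACHN. It encodes a long fibril-associated chain that links fibrils to their surroundings. It had 28.9, 26.4 and 29.3 CPM with SWTX-143 in ACHN, against 51.0, 49.4 and 53.3 CPM with DMSO. Treated libraries were 1.83-fold lower on average and apart from the DMSO libraries (−0.88 ± 0.07, adjusted p = 1.29e-15). In H226, where its level under DMSO was higher than in ACHN, it had 345, 339.6 and 454 CPM with SWTX-143, against 473, 384 and 409.5 CPM with DMSO. SWTX-143 replicate 3 lay among the DMSO libraries and the gene was not called (−0.16 ± 0.16, adjusted p = 0.509). Without that library the log2 fold change was −0.31 and was called (adjusted p = 0.013). The same library stood high within its group for long transcripts in general, taken as 582 genes with a transcript of over 10000 bases. Its median log2 deviation from the mean of the H226 SWTX-143 libraries was 0.10, against −0.03 and −0.07 in replicates 1 and 2. The H226 DMSO libraries deviated from their own mean by 0.05, −0.06 and 0.01. Whether that moved the result was not tested. The joint fit called no difference between the lines for COL12A1 (0.71 ± 0.22, adjusted p = 0.0646). DESeq2 (adjusted p = 0.00168) and the fits without H226 DMSO replicate 1 (adjusted p = 0.0327) or any single H226 SWTX-143 library (adjusted p = 4.74e-06 to 0.0496) called the difference.

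The promoter window of COL12A1 (RefSeq, GRCh38.p14, chr6:75206004-75206303, minus strand) and that of SPARC (chr5:151686866-151687165, minus strand) are shown because both genes fell strongly in ACHN and both windows hold the TEAD core letters, in capitals. GGAATG began 167 bases before the start of COL12A1, and CATTCC began 17 bases before that of SPARC. The other windows with these letters belonged to COL10A1, COL11A2 and LOXL3. Of those, COL11A2 rose in H226 and was not called in ACHN, LOXL3 was called in neither line, and COL10A1 was tested in neither. Both windows shown were picked by the fall and the letters together, so that pairing was fixed by the choice. Any part of these letters in the falls was not tested.
COL12A1: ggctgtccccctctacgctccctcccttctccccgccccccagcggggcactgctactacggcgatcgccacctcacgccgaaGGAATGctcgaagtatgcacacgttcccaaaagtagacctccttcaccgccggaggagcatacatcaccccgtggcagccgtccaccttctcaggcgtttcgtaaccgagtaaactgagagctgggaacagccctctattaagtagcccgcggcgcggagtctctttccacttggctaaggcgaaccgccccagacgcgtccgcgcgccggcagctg
SPARC: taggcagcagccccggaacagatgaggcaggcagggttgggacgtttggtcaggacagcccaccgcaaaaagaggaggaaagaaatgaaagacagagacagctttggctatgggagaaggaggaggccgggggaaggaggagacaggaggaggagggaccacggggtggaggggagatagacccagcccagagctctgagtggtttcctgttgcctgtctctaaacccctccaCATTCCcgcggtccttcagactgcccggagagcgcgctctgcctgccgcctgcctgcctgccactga

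Of the other fibril-associated chains, COL16A1, COL9A2 and COL9A3 rose in H226 at low levels. COL16A1, a chain of fibril and cell contacts, had 25.3, 26.0 and 28.5 CPM with SWTX-143 against 21.6, 21.2 and 19.9 CPM with DMSO, with groups apart (0.33 ± 0.08, adjusted p = 0.000963). COL9A2 and COL9A3, type IX chains of cartilage, were near the limit of the filter. COL9A2 had 3.26, 4.47 and 2.25 CPM with SWTX-143 against 0.850, 1.14 and 0.330 CPM with DMSO (2.04 ± 0.33, adjusted p = 1.68e-06). COL9A3 had 2.87, 2.61 and 3.00 CPM with SWTX-143 against 0.850, 0.857 and 0.881 CPM with DMSO (1.69 ± 0.30, adjusted p = 4.47e-06). Both groups were apart in both genes, but the filter asked for 0.899 CPM before scaling in 3 libraries, which 1 DMSO library met for COL9A2 and none for COL9A3. COL9A3 also shares 45 exonic bases with TCFL5 on the other strand, which was far higher (27.5 CPM with SWTX-143 and 28.0 CPM with DMSO). Strand use in the counting is not given, so reads of the shared bases cannot be assigned. COL14A1 was not called in ACHN (0.20 ± 0.21, adjusted p = 0.585) and not tested in H226.

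Of the transmembrane chains, COL17A1, a hemidesmosome collagen, had 4.65, 4.37 and 3.84 CPM with SWTX-143 in H226, against 3.40, 2.48 and 2.86 CPM with DMSO (0.54 ± 0.20, adjusted p = 0.0263). COL23A1 had 1.58, 0.651 and 1.78 CPM with SWTX-143 in H226, against 0.283, 0.476 and 0.991 CPM with DMSO (1.21 ± 0.44, adjusted p = 0.0219). The groups were apart for COL17A1 and overlapped for COL23A1, and DESeq2 called neither (adjusted p = 0.136 and 0.119). The COL17A1 call was lost without DMSO replicate 2 or 3 or SWTX-143 replicate 1 or 2, at log2 fold changes of 0.43 to 0.53. The COL23A1 call was lost without DMSO replicate 1 or 2 or SWTX-143 replicate 1 or 3, at 0.88 to 1.10. COL18A1, the basement membrane proteoglycan collagen whose tail fragment is endostatin, had 454, 461 and 458 CPM with SWTX-143 in H226, against 405, 422 and 406 CPM with DMSO. The treated libraries were higher by a small margin (0.15 ± 0.04, adjusted p = 0.0021). In ACHN it was the highest collagen per kb of the union of exons and had 495, 477 and 471 CPM with SWTX-143, against 453, 475 and 469.6 CPM with DMSO, with overlapping groups (0.03 ± 0.04, adjusted p = 0.633). SLC19A1 overlaps 1401 of its exonic bases on the other strand and had at most 25.5 CPM in any group. COL15A1, its relative, did not pass the filter in H226, at 0.198, 0.465 and 0.375 CPM with SWTX-143 against 0.850, 1.43 and 0.881 CPM with DMSO, and was at 0 in ACHN. Its treated libraries all lay below the DMSO libraries in H226, and with no filter it was called lower there (log2 fold change −1.58, adjusted p = 0.0066). COL26A1 was tested in H226 alone and not called (0.02 ± 0.31, adjusted p = 0.967), and COL13A1, COL25A1 and COL28A1 were too low for a test in either line.

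Among the crosslinking enzymes, LOX moved in opposite directions while LOXL2 fell in both lines. LOX is the founding lysyl oxidase of fibrillar collagen and elastin. It had 679.8, 675 and 622 CPM with SWTX-143 in H226, against 530.0, 552 and 529 CPM with DMSO. All treated libraries were higher (0.29 ± 0.04, adjusted p = 2.93e-08). ACHN cells had 121, 125 and 127 CPM with SWTX-143, against 154, 153 and 155 CPM with DMSO, and all treated libraries were lower (−0.33 ± 0.04, adjusted p = 2.1e-08). The difference between the responses was called (0.61 ± 0.06, adjusted p = 1.45e-13). LOXL2, an oxidase known to act on type IV collagen, had 808, 794 and 774 CPM with SWTX-143 in H226, against 905, 981 and 939 CPM with DMSO (−0.26 ± 0.04, adjusted p = 1.64e-07). In ACHN it had 115, 109 and 108 CPM with SWTX-143, against 119, 126 and 136 CPM with DMSO (−0.22 ± 0.05, adjusted p = 0.000547). The groups were apart in both lines, and no difference between the responses was called (−0.05 ± 0.06, adjusted p = 0.674).

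The balance of LOX to LOXL2, per kb, was 0.856 ± 0.0256 with SWTX-143 and 0.587 ± 0.0136 with DMSO in H226, where the libraries were apart. In ACHN the ratio was 1.16 ± 0.0687 with SWTX-143 and 1.25 ± 0.0858 with DMSO, and the libraries overlapped. These ratios are per kb of the union of exons. Per kb of the longest transcript the ACHN ratio was 0.782 ± 0.0464 with SWTX-143 and 0.847 ± 0.0580 with DMSO. Which of LOX and LOXL2 was higher in ACHN therefore depends on the length used. ENTPD4 overlaps LOXL2 by 120 exonic bases on the same strand and also had fewer reads with SWTX-143 (118 CPM with SWTX-143 and 160.1 CPM with DMSO in H226). Its part in the LOXL2 result was not tested. LOXL4 had 44.5, 41.2 and 40.2 CPM with SWTX-143 in ACHN, against 49.8, 49.4 and 53.4 CPM with DMSO, a fall with groups apart (−0.29 ± 0.06, adjusted p = 0.000346). In H226 it had only 2.03 ± 0.0668 CPM with SWTX-143 and 1.76 ± 0.206 CPM with DMSO and was not called (0.20 ± 0.27, adjusted p = 0.593). LOXL1, the oxidase of elastic fibres, had 231 ± 4.40 CPM with SWTX-143 and 215 ± 4.41 CPM with DMSO in H226 (0.09 ± 0.04, adjusted p = 0.0718). Upper-quartile scaling (log2 fold change 0.14, adjusted p = 0.00494) and library size alone (0.13, adjusted p = 0.00658) called LOXL1, whose antisense RNA LOXL1-AS1 overlaps 335 of its exonic bases at 101 CPM in both H226 groups. LOXL3, called in neither line, overlaps HTRA2 and DOK1, which were both higher than it in each group.

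**Figure D4:**
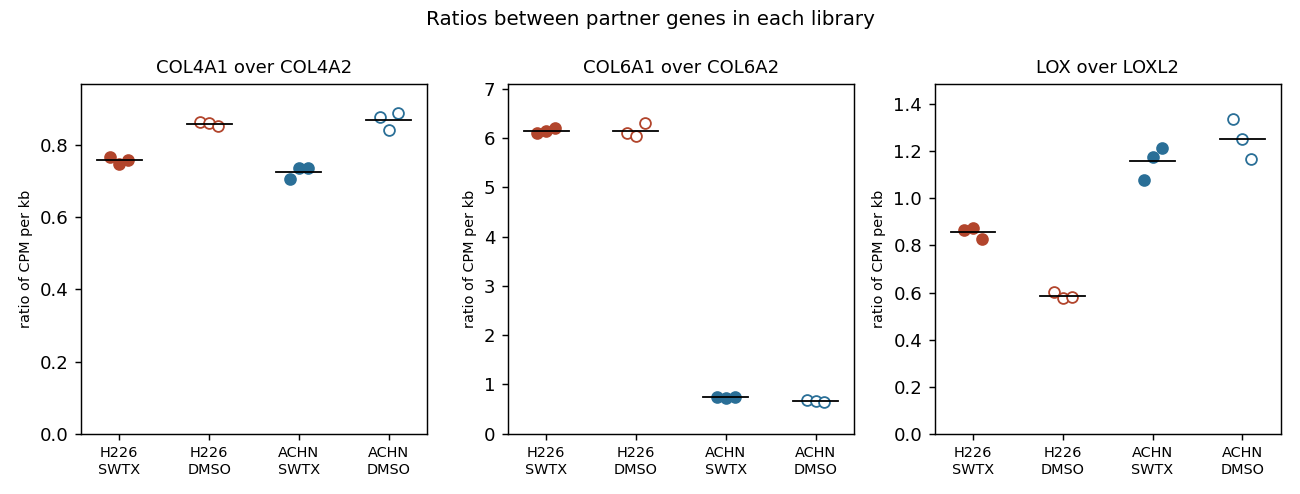
Ratios of CPM per kb of the union of exons between partner genes in each library, with filled circles for SWTX-143, open circles for DMSO and bars for the means of 3. The ratio of COL4A1 to COL4A2 was lower with SWTX-143 in both lines, that of LOX to LOXL2 was higher with SWTX-143 in H226, and that of COL6A1 to COL6A2 was near 6.14 in both H226 groups.

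SPARC, a collagen-binding glycoprotein of basement membranes and wounds, fell in both lines and further in ACHN. It had 3875, 3858 and 3568 CPM with SWTX-143 in H226, against 4022, 4241 and 4053 CPM with DMSO (−0.13 ± 0.04, adjusted p = 0.00302). The ACHN libraries had 283, 283 and 276 CPM with SWTX-143, against 433, 435 and 426 CPM with DMSO (−0.64 ± 0.04, adjusted p = 1.1e-20). The groups were apart in both lines, and the difference between the responses was called (0.50 ± 0.05, adjusted p = 6.27e-12). The H226 call was lost under upper-quartile scaling (log2 fold change −0.08, adjusted p = 0.0687). BGN, a small proteoglycan on collagen fibrils, had 128, 133 and 130.3 CPM with SWTX-143 in H226, against 101, 98.3 and 107 CPM with DMSO. All treated libraries were higher (0.34 ± 0.05, adjusted p = 5.72e-08), and in ACHN BGN stayed under 1.2 CPM and was not tested.

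FN1, the fibronectin on which cells lay down collagen, was far lower in H226 than in ACHN under DMSO (−5.93 ± 0.07, adjusted p = 1.77e-45). It had 943, 888 and 969 CPM with SWTX-143 in ACHN, against 731, 811 and 814 CPM with DMSO, a rise with groups apart (0.23 ± 0.04, adjusted p = 1.4e-05). In H226 it had 9.59, 10.3 and 13.9 CPM with SWTX-143, against 13.5, 12.5 and 12.6 CPM with DMSO. SWTX-143 replicate 3 lay above the DMSO libraries and replicates 1 and 2 below them (−0.20 ± 0.12, adjusted p = 0.2). Without that library FN1 was lower (log2 fold change −0.38, adjusted p = 0.015). The difference between the lines was called (−0.44 ± 0.12, adjusted p = 0.0098) but lost with library size alone (adjusted p = 0.0628) and without H226 DMSO replicate 1 (log2 difference −0.36), H226 SWTX-143 replicate 1 (−0.30) or H226 SWTX-143 replicate 2 (−0.34).

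In the joint fit, 8 of 36 members differed in response between the lines, 6 with a higher and 2 with a lower log2 fold change in H226. Over all 14664 tested genes 15.6% differed, 5.89% higher and 9.7% lower. Those higher in H226 were LOX, SPARC, COL4A1 (0.28 ± 0.05, adjusted p = 2.65e-05), COL4A2 (0.20 ± 0.05, adjusted p = 0.00292), COL7A1 (0.73 ± 0.19, adjusted p = 0.0129) and COL5A1. The lower ones were COL8A1 (−0.48 ± 0.08, adjusted p = 1.64e-06) and FN1. The COL5A1 difference of 2.93 rests on single reads in ACHN, with 0, 0 and 0.0875 CPM with SWTX-143 and 0.641, 0 and 0.174 CPM with DMSO. It was 1.45 without ACHN DMSO replicate 1, 2.45 without SWTX-143 replicate 1, 2.52 without SWTX-143 replicate 2 and 4.74 without SWTX-143 replicate 3 of ACHN, and only the last of these was called. With library size alone (adjusted p = 0.0501) and in DESeq2 (adjusted p = 0.0848) it was not called either. Leaving out the 3 members at 0 in ACHN, the median log2 difference over 33 members was 0.11, beside −0.01 over all tested genes. These 33 still include members too low for a test within a line. Among them, COL9A2 (1.68) and COL9A3 (1.65) passed the filter in H226 largely through treated libraries, so the median is not free of that choice.

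The genes that make, ship, partner and bind collagen moved in both directions. Of 19 genes for procollagen modification and folding, all tested, 2 rose and 5 fell in H226, and 1 rose and 3 fell in ACHN. These shares lie near those of all tested genes (40.7% called in H226 and 17.8% in ACHN), so the counts say nothing particular of the list. P3H2, a prolyl 3-hydroxylase, had 157 ± 0.999 CPM with SWTX-143 and 198 ± 2.30 CPM with DMSO in H226 (−0.35 ± 0.04, adjusted p = 2.84e-09), and also fell in ACHN (−0.17 ± 0.06, adjusted p = 0.0228). PLOD3, a lysyl hydroxylase and glycosyltransferase, fell in H226 (−0.17 ± 0.05, adjusted p = 0.00375) and in ACHN (−0.17 ± 0.04, adjusted p = 0.00287). P4HA1, a catalytic subunit of prolyl 4-hydroxylase, rose in H226 (0.16 ± 0.05, adjusted p = 0.00447) and fell in ACHN (−0.19 ± 0.05, adjusted p = 0.00219), and that difference was called (0.35 ± 0.07, adjusted p = 5.35e-05). TMEM38B, an ion channel of the endoplasmic reticulum, fell in H226 (−0.37 ± 0.12, adjusted p = 0.00759). FKBP10, a collagen chaperone, rose in ACHN (0.18 ± 0.04, adjusted p = 0.000592). SERPINH1, the collagen chaperone HSP47, was not called in H226 (−0.06 ± 0.04, adjusted p = 0.23) or ACHN (−0.05 ± 0.05, adjusted p = 0.579).

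Of 14 symbols for procollagen export and propeptide processing, 10 were tested in each line, and 5 rose and 1 fell in H226 while 2 rose and 1 fell in ACHN, beside the same 40.7% and 17.8% of all genes called. BMP1, which removes the C-propeptide and also activates LOX, had 328, 336 and 332 CPM with SWTX-143 in H226, against 257, 253 and 256 CPM with DMSO. Every treated library was higher (0.37 ± 0.04, adjusted p = 5.03e-11), and BMP1 rose in ACHN as well (0.18 ± 0.07, adjusted p = 0.0454). ADAMTS2, an N-propeptidase, rose in H226 (0.40 ± 0.05, adjusted p = 1.55e-08) and had at most 1 count in any ACHN library. ADAMTS3, its relative, fell in both lines, with 154 ± 4.29 CPM with SWTX-143 and 217 ± 3.25 CPM with DMSO in ACHN (−0.51 ± 0.04, adjusted p = 2.43e-15) and a log2 fold change of −0.28 ± 0.05, adjusted p = 1.12e-06 in H226. CTAGE5, an export factor at endoplasmic reticulum exit sites, rose in H226 (0.34 ± 0.08, adjusted p = 0.000219) and ACHN (0.27 ± 0.07, adjusted p = 0.00255). PCOLCE, an enhancer of the C-proteinase, rose in H226 (0.48 ± 0.19, adjusted p = 0.0377) and was not called in ACHN (0.25 ± 0.12, adjusted p = 0.179).

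Of 24 fibril-associated partners, 15 were tested in H226 (6 rose, 2 fell, beside 40.7% of all genes called) and 9 in ACHN (1 rose, 1 fell, beside 17.8%). THBS1, thrombospondin 1, fell in both lines. It had 3.46, 2.88 and 3.75 CPM with SWTX-143 in H226, against 15.1, 13.4 and 14.9 CPM with DMSO (−2.11 ± 0.15, adjusted p = 5.35e-18). In ACHN, where it was far higher, it had 1119, 1174 and 995 CPM with SWTX-143, against 2609, 2326 and 2364 CPM with DMSO (−1.17 ± 0.06, adjusted p = 2.82e-07). The treated and DMSO libraries were apart in both lines. In H226 the microfibril proteins MFAP5 (−0.54 ± 0.04, adjusted p = 6.89e-17) and MFAP2 (0.50 ± 0.07, adjusted p = 4.36e-08) moved in opposite directions, and TGFBI, a collagen-binding adhesion protein, rose (0.20 ± 0.04, adjusted p = 5.78e-05). TNC, tenascin C, rose in H226 (0.40 ± 0.11, adjusted p = 0.00342) and in ACHN (0.27 ± 0.07, adjusted p = 0.00287). In ACHN, EMILIN1 (0.68 ± 0.37, adjusted p = 0.222) and PXDN (−0.07 ± 0.04, adjusted p = 0.247) were not called.

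Of 10 collagen receptors, 7 were tested in H226 (4 rose, beside 19% of all genes) and 6 in ACHN (3 rose and 1 fell, beside 8.43% and 9.37%). DDR1, a receptor tyrosine kinase for collagen, had 243, 248 and 233 CPM with SWTX-143 in H226, against 184, 192 and 189 CPM with DMSO. The groups were apart (0.35 ± 0.04, adjusted p = 1.29e-09), DDR1 was not called in ACHN (0.09 ± 0.05, adjusted p = 0.198), and the difference was called (0.25 ± 0.07, adjusted p = 0.00323). MRC2, which takes up collagen for degradation, rose in H226 (0.26 ± 0.04, adjusted p = 2.83e-07) and ACHN (0.27 ± 0.05, adjusted p = 9.69e-05). So did the collagen-binding integrin chains ITGA2 (0.60 ± 0.09, adjusted p = 4.32e-07 in H226, 0.34 ± 0.08, adjusted p = 0.000782 in ACHN) and ITGB1 (0.17 ± 0.04, adjusted p = 0.000577 in H226, 0.19 ± 0.03, adjusted p = 1.21e-05 in ACHN). ITGA1, another collagen-binding chain, fell in ACHN (−0.22 ± 0.08, adjusted p = 0.049).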

How the data were processed

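Poly(A) RNA of 12 libraries was read as paired reads of 100 bases on a BGISEQ-500, per the labels' protocols. Whole-number counts per gene symbol were deposited by the authors as 1 table per line, with 0 columns of other samples. The build GRCh37 (hg19) and the tools STAR 2.6.1d, FastQC and cutadapt are named, per the submitters' processing notes. How reads were counted, with which strand setting and annotation, is not given in the sources used here. Within each line, edgeR 4.0.16 (R 4.3.3) compared SWTX-143 with DMSO (filterByExpr, TMM, robust quasi-likelihood F test, Benjamini-Hochberg over all tested genes, limit 0.05). The difference between lines and the baseline were contrasts of a joint fit of all 12 libraries. SE were the log2 fold change divided by the root of F. The scripts were tested on simulated data. Exonic lengths and overlaps came from GENCODE 29 (GRCh38), another build than the files', so no gene coordinates were taken from it. Promoters came from RefSeq (GRCh38.p14). Alternatives were other scalings, no filter, DESeq2 1.42.0, a replicate block, the longest transcript as length, and leaving out each library. Members were named if called in either line or among the 8 highest per length, and companion genes if among the 4 of a list with the smallest p in a line (SERPINH1 was added after its values were seen). The members and lists were chosen with earlier results of these data known.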

Additional observations from a re-analysis of the deposited data

Results flagged for a closer look

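The responses of 8 genes differed between the lines by the contrast of the joint fit, given here as the log2 fold change in H226 minus that in ACHN. LOX differed by 0.607 and SPARC by 0.495. COL4A1 differed by 0.284, COL4A2 by 0.204 and COL7A1 by 0.734. COL8A1 differed by −0.477 and FN1 by −0.437. COL5A1 differed by 2.925, with at most 0.641 CPM in any ACHN library. Of these, LOX was the gene called in opposite directions in the 2 lines.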

How the results depend on the processing

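Under every alternative in which the gene was tested, 15 of 20 member calls in H226, 10 of 12 in ACHN, 34 of 35 at baseline and 6 of 8 for the difference remained. Of all calls, 0 changed sign. COL23A1, called at baseline, did not pass the filter in the joint fit without H226 SWTX-143 replicate 3, so its call was not tested there. Most calls lost and gained are named in the report. In addition, COL18A1 became different between the lines with upper-quartile scaling or without H226 DMSO replicate 2 or H226 SWTX-143 replicate 3, and COL9A3 did without ACHN SWTX-143 replicate 2 or 3. With no filter, COL11A1 (adjusted p = 0.0357) and COL15A1 (1.89e-09) were called higher and COL24A1 (0.0092) lower in H226 at baseline. COL27A1 was called in ACHN without SWTX-143 replicate 2 (log2 fold change 0.24), and the baseline call of COL9A2 was lost without ACHN DMSO replicate 1 (1.12) or 3 (1.27) or H226 DMSO replicate 2 (1.14), and was 2.47 without ACHN DMSO replicate 2. DESeq2 called 1448 genes in ACHN in place of 2401 and 1482 for the difference in place of 2286, and the cause was not tested. The difference split 863 higher and 1423 lower with TMM, 1159 and 1045 with upper-quartile scaling, 1017 and 1179 with DESeq2 size factors, and 1056 and 1061 with no filter. Library size alone moved the median baseline log2 fold change of all genes to −0.155.

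Same-numbered libraries of a line were not treated as paired. Correlations of their deviations from the group means were −0.106 to 0.084, which with so few libraries per group cannot exclude a pairing. With the replicate number as a block, 21 members were called in H226, 12 in ACHN, 8 for the difference and 35 at baseline. The corresponding gene counts were 5744, 2146, 2378 and 12399. LOXL1 became called in H226 under the block (adjusted p = 0.0484). The filter left 16 members untested in both lines. Without it 48 members were tested in H226 and 41 in ACHN, with 21 and 12 called, the added one being COL15A1. Depth limits the 4 members with no count in any library to the upper limit given in the report.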
